A study of Homo sapiens with 12 samples.

Results

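The 9 keratin genes KRT7, KRT8, KRT10, KRT15, KRT17, KRT18, KRT19, KRT80 and KRT81 were followed in 2 human pancreatic cancer cell lines with and without knockdown of GOT1, the cytosolic aspartate aminotransferase. They were found by gene name and are 9 of the 58721 genes in the deposited tables. The set joins simple epithelial keratins with other keratins of these cells, and it was chosen with values of these data known. KRT15 was selected on its measured dox change, much lower counts with dox in MIA PaCa-2 but not in the other line. Its changes are therefore given as a description, with no test, and KRT15 is left out of every count of called genes.

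Pa-Tu-8902 (labelled Tu8902) and MIA PaCa-2 (labelled MiaPaCa2, and Mia in the sample titles) are established lines, and both carried a stable GOT1 hairpin, a short RNA whose expression doxycycline (dox) switches on. Each line gave 3 libraries without dox and 3 with dox for 5 days, at 1 µM/mL by the labels and in µg/mL by the study's methods. No library came from dox-treated cells without the GOT1 hairpin, so an effect of dox and an effect of GOT1 loss cannot be told apart. The labels do not say whether replicates were separate cultures, so p-values measure the spread between these libraries. GOT1 fell by 4.64 on the log2 scale with dox in Pa-Tu-8902 (from 78.3 to 83.4 TPM down to 3.29 to 4.51 TPM) and by 4.76 in MIA PaCa-2 (from 38.9 to 44.1 TPM down to 1.68 to 1.95 TPM).

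Keratins are the intermediate filament proteins of epithelial cells. A filament is built from pairs of an acidic type I chain and a basic type II chain, and a chain without a partner is usually degraded. KRT8 (type II) and KRT18 (type I) form the pair of simple epithelia, and duct cells of the pancreas add KRT7 (type II) and KRT19 (type I). KRT15 and KRT17 are type I keratins of the basal layer and of skin appendages or injured epithelium, and KRT10 is the type I keratin of differentiated epidermis. KRT80 is a widely expressed type II keratin, and KRT81 is a type II keratin of hair.

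Type I and type II genes sit in separate clusters (GRCh38, GENCODE 44). On the minus strand of chromosome 17, KRT10 spans 40818117 to 40822614, KRT15 spans 41513745 to 41522529, KRT19 spans 41523617 to 41528308 and KRT17 spans 41619442 to 41624842. On chromosome 12, KRT80 (52168996 to 52192014), KRT81 (52285913 to 52291534) and KRT8 (52897187 to 52949954) are on the minus strand. KRT7 (52232520 to 52252186) and KRT18 (52948871 to 52952906), the one type I gene outside chromosome 17, are on the plus strand of chromosome 12. The libraries were strand-specific, but the study's methods give default settings for the counting and name no strand option, and by default RSEM does not use strand. KRT8 and KRT18 share 525 exonic bases on opposite strands, and reads from there could have been split between them. KRT10 shares 61 exonic bases with the antisense gene KRT10-AS1, which had 219 to 557 counts.

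The line labels were set against markers first. Pa-Tu-8902 had at least 2620 counts of each of the epithelial genes CDH1, EPCAM, CLDN7 and ESRP1 in every library. MIA PaCa-2 had at most 11 counts of any of these genes in any library, with or without dox, although it is labelled pancreatic cancer and made KRT8, KRT18 and KRT19. VIM, the mesenchymal intermediate filament gene, had 133835 to 166453 counts in MIA PaCa-2, against 99 to 378 in the other line, and ZEB1 was also higher in MIA PaCa-2. The other 2 of the 4 mesenchymal markers went the opposite way in untreated cells: CDH2 had 57 to 74 counts in Pa-Tu-8902, against 0 to 1, and FN1 had 26 to 37, against 5 to 16. With dox, CDH1 rose (log2 0.86 ± 0.048) and CLDN7 fell (log2 -0.87 ± 0.066) in Pa-Tu-8902, while no mesenchymal marker was called by edgeR among the 4 tested in that line or the 3 tested in MIA PaCa-2, where CDH2 was too low. The part of these markers in the keratin results was not tested. Of markers of other cells, PTPRC, DCN, LUM, PRSS1 and CPA1 had at most 3 counts in any library and the endothelial gene PECAM1 had at most 14.

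In untreated cells the simple pair led in both lines, and the next keratins differed between the lines. Levels are given in TPM, a share of all transcripts that allows for their length. In untreated Pa-Tu-8902, KRT8 stood at 3789 ± 253 TPM (SD, n = 3 here and below), KRT18 at 2682 ± 120, KRT7 at 1282 ± 188 and KRT19 at 1253 ± 98.5. The ranges of KRT7 and KRT19 overlapped, and those of all other neighbours in this order were apart. Below them came KRT10 at 68.7 ± 2.98 TPM, KRT80 at 22.6 ± 0.816, KRT15 at 12.8 ± 1.76, KRT81 at 2.19 ± 0.286 and KRT17 at 0.360 ± 0.046.

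In untreated MIA PaCa-2, KRT8 stood at 1445 ± 66.5 TPM, KRT18 at 964 ± 81.7 and KRT19 at 397 ± 15.1. KRT10 followed at 55.6 ± 3.72 TPM, ahead of KRT80 at 37.9 ± 6.55 and KRT15 at 37.4 ± 5.03, whose ranges overlapped. KRT81 was at 2.78 ± 0.174 TPM and KRT7, the duct keratin, at only 0.423 ± 0.151. KRT17 had 0, 2 and 0 counts in these libraries, which is within the 3 counts that an observed 0 allows.

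The 9 genes together held 0.871% to 0.981% of all TPM in untreated Pa-Tu-8902, and with dox 0.724% to 0.823%, below every untreated library. In MIA PaCa-2 their share was 0.284% to 0.313% untreated and 0.290% to 0.314% with dox, and these ranges overlapped. In bulk RNA, fewer cells that make a keratin and less keratin RNA per cell cannot be told apart.

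**Figure D1:**
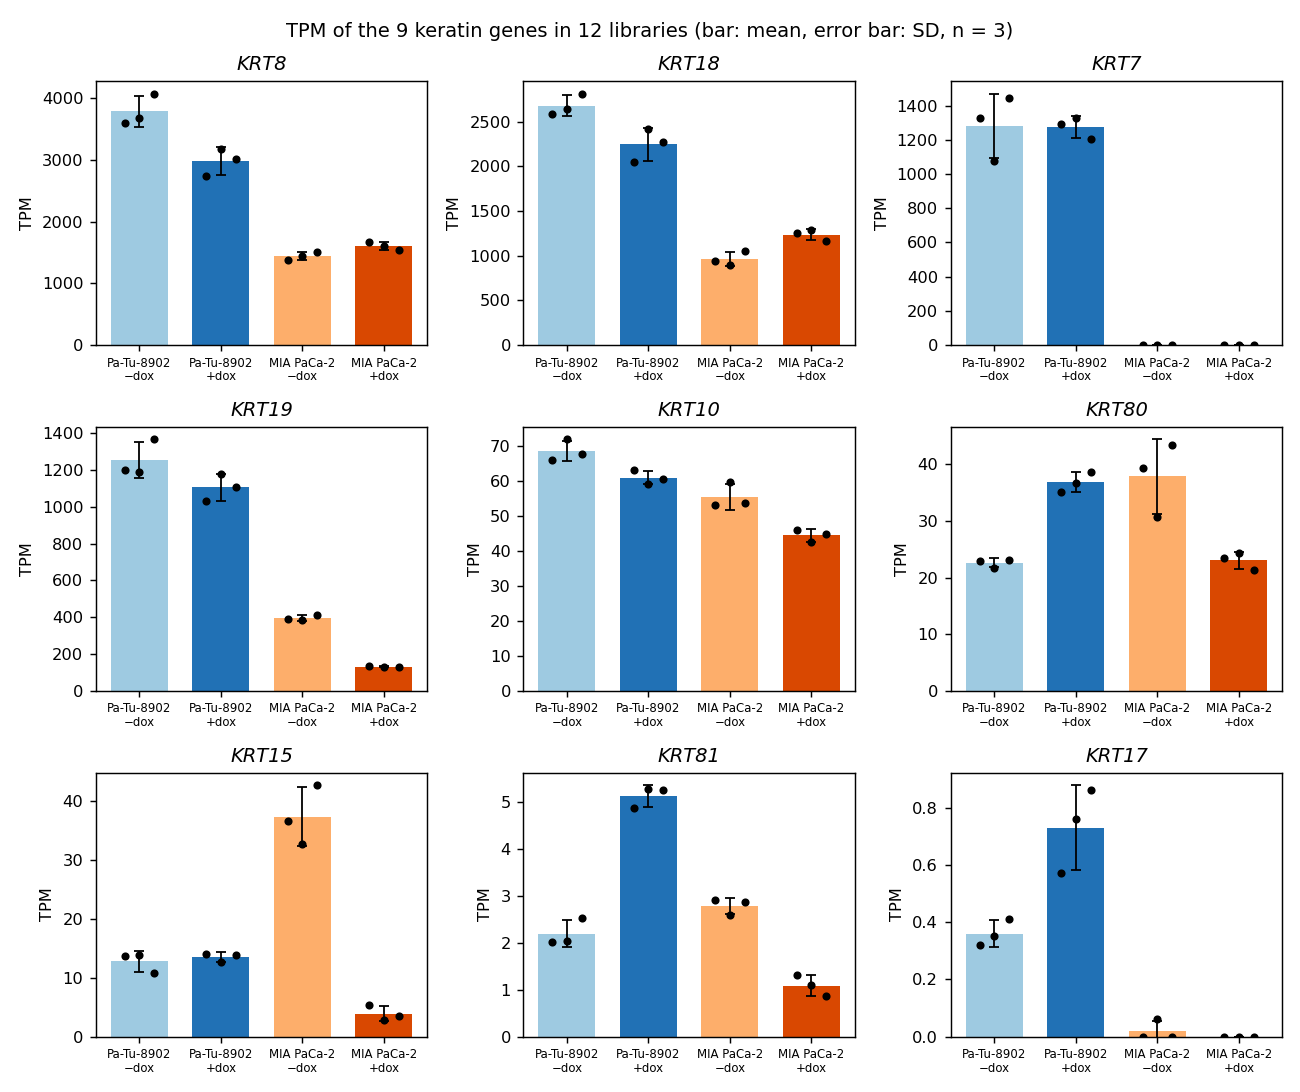
TPM (vertical axis, linear from 0, a separate scale for each gene) of the 9 keratin genes in 4 groups, with bars at the mean, error bars of 1 SD and a point for each of 3 libraries. KRT7 was at 1076 TPM or more in every Pa-Tu-8902 library and at 1.26 or less in every MIA PaCa-2 library; KRT15 was at 32.7 TPM or more in untreated and 5.29 or less in dox-treated MIA PaCa-2; KRT80 and KRT81 moved in opposite directions in the lines.

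A gene was called when edgeR's quasi-likelihood test over all genes gave an adjusted p (Benjamini-Hochberg) under 0.01 with a change of 1.5-fold or more. Between untreated Pa-Tu-8902 and untreated MIA PaCa-2, 58.1% of all genes tested were called. Of the 8 members other than KRT15, 7 were tested and 5 were called. KRT7 had 30212 to 38227 counts in untreated Pa-Tu-8902, against 4 to 8 in MIA PaCa-2, a log2 difference of 12.42 ± 0.17 (SE) with an adjusted p of 5.03e-15. It passed the filter on low counts through Pa-Tu-8902 only.

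The other simple keratins were also higher in Pa-Tu-8902. KRT8 was 2.55-fold higher (log2 1.35 ± 0.091, adjusted p = 1.14e-08), KRT18 2.73-fold (1.45 ± 0.078, 1.21e-09) and KRT19 3.09-fold (1.63 ± 0.086, 1.01e-09). KRT80 went the other way and was 1.68-fold higher in MIA PaCa-2 (log2 -0.75 ± 0.085, adjusted p = 2.66e-06). KRT10 (0.17 ± 0.10, adjusted p = 0.139) and KRT81 (-0.38 ± 0.17, adjusted p = 0.0523) were not called. KRT17 was too low in this fit to be tested, but its 8 to 10 counts in Pa-Tu-8902 put it at least 2.77-fold above the limit of 3 counts per library in MIA PaCa-2. KRT15 was 3.44-fold higher in untreated MIA PaCa-2 than in untreated Pa-Tu-8902, by description.

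With dox in Pa-Tu-8902, the 2 members that rose were KRT80 and KRT81, both of minor abundance. Of all genes tested, 16.3% were called, and of the 8 members without KRT15, 2 were. The calls over all genes also leaned up, with 1379 higher and 1064 lower. The expected counts of KRT80 were 1743, 2063 and 2022 in the untreated libraries and 3144, 4246 and 3215 with dox. Its TPM ranged from 21.7 to 23.2 untreated and from 35.1 to 38.7 after dox, so every dox library was above every untreated one. The change was 0.62 ± 0.065 on the log2 scale (1.54-fold, adjusted p = 2.13e-05), and without untreated replicate 2 the fold was 1.48, under the limit.

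KRT81, the hair keratin, had 71, 91 and 102 counts in untreated Pa-Tu-8902 and 203, 286 and 203 with dox. In TPM these were 2.01, 2.04 and 2.52, against 4.86, 5.27 and 5.24. The groups did not overlap, and the rise was 2.21-fold (log2 1.15 ± 0.14, adjusted p = 6.54e-05). KRT86, a hair keratin gene that is a close paralog and whose span includes KRT81 on the opposite strand, with no exonic base in common, had 59 to 68 counts without dox and 177 to 255 with dox. It rose 2.75-fold (log2 1.46 ± 0.15, adjusted p = 1.64e-05). Reads that fit both paralogs are assigned to them by RSEM's estimate, so their separate values are uncertain.

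The simple keratins were slightly lower with dox in Pa-Tu-8902, by less than 1.5-fold. KRT8 was at 3609, 3682 and 4078 TPM without dox and at 2747, 3186 and 3023 with dox, with no overlap. Its log2 change was -0.42 ± 0.090 with an adjusted p of 0.00256, past the p threshold but 1.34-fold in size. KRT18 was at 2583, 2647 and 2815 TPM without dox and at 2049, 2419 and 2276 with dox, again without overlap. Its log2 change of -0.34 ± 0.085 (1.27-fold) had an adjusted p of 0.00617.

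The duct keratins showed smaller differences in Pa-Tu-8902. KRT7 was at 1328, 1076 and 1443 TPM without dox and at 1291, 1329 and 1206 with dox, and the groups overlapped (log2 -0.11 ± 0.086, adjusted p = 0.304). KRT19 had a log2 change of -0.26 ± 0.090 (adjusted p = 0.0330) and KRT10 one of -0.07 ± 0.051 (adjusted p = 0.290). KRT17 had 8 to 10 counts without dox and 18 to 28 with dox, a log2 difference of 1.10 ± 0.33 that missed the threshold (adjusted p = 0.0161). With the counts of its pseudogenes added, the difference was 0.36, and KRT17 passed the filter only through the dox group. KRT15 stood at 13.7, 13.9 and 10.7 TPM without dox and at 14.0, 12.6 and 13.9 with dox, overlapping ranges with a log2 change of 0.04 ± 0.11.

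In MIA PaCa-2 the picture was different. KRT19, KRT80 and KRT81 fell with dox and none of the other members tested, KRT15 set aside, passed the thresholds. Of all genes tested, 12% were called, and of the 7 members tested besides KRT15, 3 were. The calls over all genes also leaned down, with 636 higher and 1115 lower. KRT17 had 0 counts in every dox-treated library and was not tested.

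KRT19, the type I keratin of duct cells, was the third most abundant keratin of untreated MIA PaCa-2. It was at 392, 384 and 413 TPM without dox and at 132, 130 and 128 TPM with dox, and the replicates of each group lay close together. In counts these were 10814 to 11398 and 2958 to 3918. The fall was 3.17-fold (log2 -1.66 ± 0.067, adjusted p = 2.64e-08).

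KRT80 was at 39.4, 30.7 and 43.5 TPM in untreated MIA PaCa-2 and at 23.5, 24.3 and 21.4 TPM with dox. The groups did not overlap, although untreated replicate 2 was nearest to the dox group. KRT80 fell 1.66-fold (log2 -0.73 ± 0.078, adjusted p = 2.53e-05). KRT81 had 122, 114 and 113 counts without dox and 47, 37 and 40 with dox, a 2.67-fold fall (log2 -1.41 ± 0.19, adjusted p = 1.21e-04). Its paralog KRT86 had 41 to 56 counts without dox and 25 to 33 with dox, a log2 change of -0.68 ± 0.26 that was not called (adjusted p = 0.0545).

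The simple pair did not follow KRT19 downwards in MIA PaCa-2. KRT18 was at 942, 895 and 1054 TPM without dox and at 1259, 1283 and 1162 with dox, all dox libraries above the untreated ones. The log2 change of 0.31 ± 0.065 passed the p threshold (adjusted p = 0.00271) at a fold of 1.24, under the limit. KRT8 had a log2 change of 0.10 ± 0.073 (adjusted p = 0.314) and KRT10 one of -0.34 ± 0.11 (adjusted p = 0.0242). KRT7 had 7, 4 and 8 counts without dox and 18, 14 and 16 with dox, a log2 difference of 1.39 ± 0.41 (adjusted p = 0.0171) at no more than 1.26 TPM. It was tested in this line only because the dox group passed the filter.

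KRT15 had the widest difference of the set, as the selection required. Its counts in MIA PaCa-2 were 1169, 1012 and 1162 without dox and 96, 78 and 137 with dox. In TPM these were 36.7, 32.7 and 42.7, against 5.29, 2.79 and 3.57. The log2 change was -3.37 ± 0.10, or 10.3-fold lower, over all alternatives between -3.49 and -3.28. In dox-treated MIA PaCa-2, KRT15 was thereby below its level in every Pa-Tu-8902 library, whereas in untreated MIA PaCa-2 it was above all of them.

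**Figure D2:**
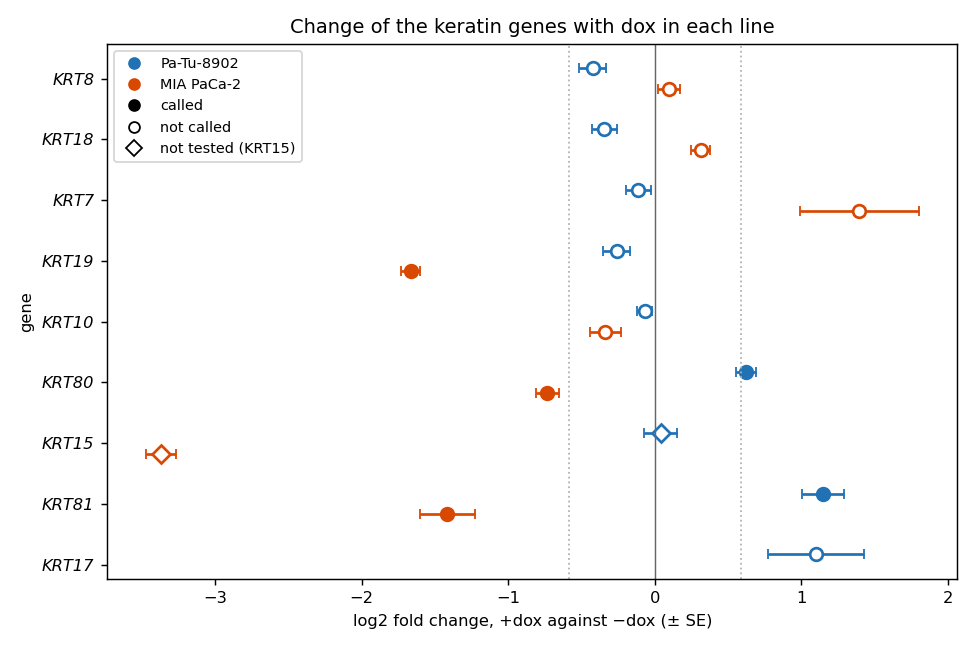
Log2 fold change with dox against without dox (horizontal axis, bars of 1 SE) for each keratin gene in Pa-Tu-8902 and MIA PaCa-2, with filled points for called genes, open points for genes not called and diamonds for KRT15, which was not tested; dotted lines mark 1.5-fold. KRT80 and KRT81 lie to the right in Pa-Tu-8902 and to the left in MIA PaCa-2, and KRT19 is past the limit only in MIA PaCa-2.

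Whether the response itself differed was tested as the interaction of line and dox over all 12 libraries, given as the change in MIA PaCa-2 minus that in Pa-Tu-8902. Of all genes tested, 10.4% were called (639 with a higher and 1085 with a lower change in MIA PaCa-2), and of the 8 members without KRT15, 4 were. KRT81 differed by the most of the 4 called members, by -2.56 ± 0.23 on the log2 scale (adjusted p = 3.26e-07). KRT80 differed by -1.36 ± 0.11 (adjusted p = 8.76e-08). Both were thus called in opposite directions in the lines, and their difference passed the test.

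The levels of KRT80 crossed over. Without dox it was higher in MIA PaCa-2 (37.9 ± 6.55 TPM) than in the other line (22.6 ± 0.816), and with dox it was at 23.1 ± 1.5 in MIA PaCa-2, below the 36.9 ± 1.78 of the other line. KRT81 was at 2.78 ± 0.174 TPM untreated and 1.09 ± 0.225 with dox in MIA PaCa-2, and at 2.19 ± 0.286 and 5.12 ± 0.229 in Pa-Tu-8902.

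KRT19 differed between the lines by -1.41 ± 0.12 (adjusted p = 2.46e-07) and KRT18 by 0.66 ± 0.12 (adjusted p = 4.73e-04). The call of KRT18 was near the fold limit. It was lost without untreated Pa-Tu-8902 replicate 3 (1.497-fold) and without dox-treated Pa-Tu-8902 replicate 1 (1.47-fold). KRT8, its partner, differed in the same direction by 0.52 ± 0.13 (adjusted p = 0.00626, 1.43-fold, not called). KRT7 (1.5 ± 0.41, adjusted p = 0.0115) and KRT10 (-0.27 ± 0.13, adjusted p = 0.130) were not called, and KRT17 could not be judged with MIA PaCa-2 at 0 to 2 counts. KRT15 differed by -3.41 ± 0.16, by description.

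The make-up of the keratin pool in MIA PaCa-2 differed with dox. KRT8 and KRT18 together held 81.6% to 82.2% of the TPM of the 9 genes in the untreated libraries and 93.1% to 93.5% with dox. KRT19 held 13.2% to 13.8% untreated, against 4.21% to 4.4% after dox. In Pa-Tu-8902, KRT8 and KRT18 held 70.1% to 72.7% without dox and 66.3% to 68.5% with dox. KRT7 held 12.4% to 15% there without dox and 15.6% to 17.8% with dox. KRT19 held 13.6% to 13.9% and, with dox, 14.3% in each library.

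**Figure D3:**
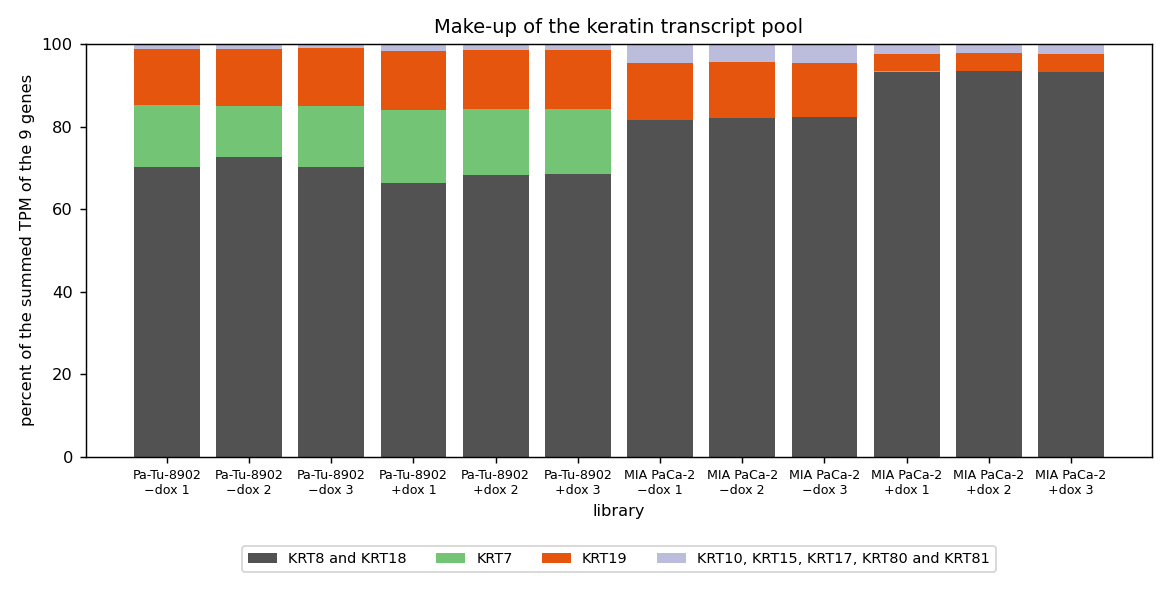
Percent of the summed TPM of the 9 keratin genes (vertical axis) in each of 12 libraries, stacked for KRT8 with KRT18, for KRT7, for KRT19 and for the other 5 genes together. KRT7 is a visible part of every Pa-Tu-8902 library and of no MIA PaCa-2 library, and KRT19 shrank from about 13.5% to 4.21% of the pool at the median of MIA PaCa-2 with dox.

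Since filaments pair type I with type II chains, the balance of the types was compared. Over the members and all other listed keratins, without KRT15, type II to type I TPM stood at 1.27 in untreated and 1.27 in dox-treated Pa-Tu-8902 as geometric means (log2 difference -0.0024, exact permutation test, two-sided, p = 1). In MIA PaCa-2 the ratio was 1.05 without dox and 1.16 with dox (log2 difference 0.14, exact permutation p = 0.1). The ratio of KRT8 to KRT18 was 1.5 without dox and 1.3 with dox in MIA PaCa-2 (log2 difference -0.21), and 1.41 and 1.33 in Pa-Tu-8902 (-0.088), each with an exact permutation p of 0.1. The value of 0.1 is the smallest that 3 libraries against 3 allow, and Benjamini-Hochberg adjustment over the 9 ratio comparisons gave 0.15 for each of these.

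The ratio of KRT7 to KRT19 separated the lines. It was 1.02 in untreated Pa-Tu-8902, against 0.0010 in untreated MIA PaCa-2 (log2 difference 9.97, exact permutation p = 0.1, adjusted 0.15). With dox it was 1.15 in Pa-Tu-8902 (p = 0.2 against untreated, exact permutation). In MIA PaCa-2 it was 0.0073 with dox (p = 0.1, exact permutation, adjusted 0.15). KRT7 had only 4 to 8 counts untreated and 14 to 18 with dox in that line and was not called there, while KRT19 fell.

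KRT15 and KRT19 are direct neighbours on chromosome 17, with 1087 bases between them, and KRT13, a type I keratin of stratified mucosa, lies 8039 bases on the other side of KRT15. No other protein-coding gene of the annotation lies between KRT13 and KRT19. KRT13 had 85, 74 and 69 counts in untreated MIA PaCa-2 and 10, 10 and 23 with dox, and it fell 5.09-fold (log2 -2.35 ± 0.27, adjusted p = 4.16e-05). In Pa-Tu-8902 its counts were 3 to 6 untreated, then 11 to 21 after dox (log2 1.68 ± 0.45, adjusted p = 0.0101, not called), and the lines differed by -4.03 ± 0.51 (adjusted p = 1.48e-05). The look at neighbouring genes was chosen after the values were seen. Farther along the cluster, KRT16 had a log2 change of 0.70 ± 0.28 in MIA PaCa-2 that was not called (adjusted p = 0.0652).

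**Figure D4:**
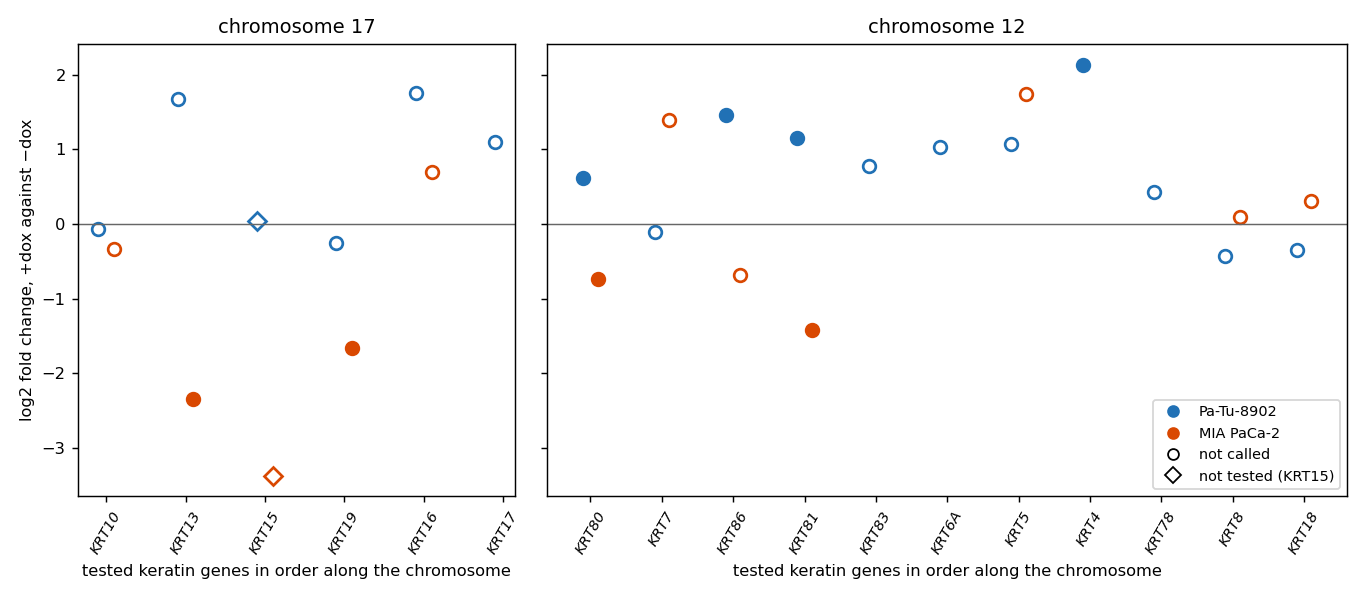
Log2 fold change with dox (vertical axis) of the tested keratin genes in their order along chromosomes 17 and 12 (horizontal axis, not to distance), in both lines, with open points for genes not called and diamonds for KRT15. KRT13, KRT15 and KRT19, which adjoin, lie at -2.35, -3.37 and -1.66 in MIA PaCa-2, while KRT80 and KRT81 lie above 0 in Pa-Tu-8902 and below 0 in MIA PaCa-2.

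Most keratins of the genome were hardly detected. Of 23 other type I genes listed, 2 were tested in each line (KRT13 and KRT16). Of 22 other type II genes, 6 were tested in Pa-Tu-8902, but MIA PaCa-2 had only 2 that passed the filter. In Pa-Tu-8902, where 16.3% of all genes tested were called, 0 of the 2 and 2 of the 6 were, KRT4 and KRT86, both higher. Some of the other genes, among them KRT13, KRT16, KRT5 and KRT6A, passed the filter there only with the help of the dox libraries, where they were higher. KRT4, a type II keratin of stratified mucosa, had 242, 343 and 289 counts without dox and 1380, 1917 and 1244 with dox. It rose 4.39-fold (log2 2.13 ± 0.079, adjusted p = 1.75e-08) and had at most 1 count in any MIA PaCa-2 library, at least 85.4-fold less than in untreated Pa-Tu-8902. In MIA PaCa-2, where 12% of all genes tested were called, 1 of 2 type I genes (KRT13) and 0 of 2 type II genes were. KRT5, a basal type II keratin, had 3 to 6 counts without dox and 12 to 21 with dox in MIA PaCa-2 (log2 1.74 ± 0.48, adjusted p = 0.0137, not called). In this line KRT5 passed the filter only through the dox group, where it was high.

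Keratin filaments are anchored to desmosomes and hemidesmosomes by plakin proteins. Of 16 desmosome and plakin linker genes, 10 were tested in Pa-Tu-8902, where 16.3% of all genes tested were called. Of the 10, 0 were higher and 3 lower (median log2 change -0.31, against 0.0014 over all genes). These were the desmosomal cadherins DSC2 (-1.47 ± 0.11) and DSG2 (-0.88 ± 0.053) and the plaque protein gene PKP2 (-0.78 ± 0.051). In MIA PaCa-2, where 12% of all genes tested were called, 7 were tested and 2 were lower (median -0.28, against -0.0089). The 2 were DSP, the desmoplakin that binds keratins (-0.59 ± 0.12), and DSG2 (-0.89 ± 0.18). Both calls in MIA PaCa-2 depended on single libraries: that of DSP was lost without untreated replicate 1 or 3 or dox replicate 3 (log2 -0.54 to -0.52), and under the replicate block, and that of DSG2 without untreated replicate 1 or dox replicate 2 or 3 (-0.95 to -0.77).

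Of 8 hemidesmosome genes, all tested in both lines, 4 were lower with dox in Pa-Tu-8902 (median -0.51). In MIA PaCa-2, 1 of the 8 was lower (median -0.44). In Pa-Tu-8902 these were the laminin genes LAMA3 (-0.61 ± 0.045) and LAMB3 (-0.71 ± 0.056), PLEC, the plectin gene (-0.83 ± 0.080), and COL17A1 (-0.89 ± 0.088). In MIA PaCa-2, ITGB4, the hemidesmosomal integrin gene, fell by 0.81 on the log2 scale (SE 0.094, adjusted p = 5.10e-05). The lines differed in response for COL17A1 (0.63 ± 0.089) and ITGB4 (-0.63 ± 0.11). The call of COL17A1 was lost without dox-treated Pa-Tu-8902 replicate 3 (1.49-fold) or untreated MIA PaCa-2 replicate 2 (1.499-fold) and with effective lengths (1.22-fold), and that of ITGB4 without dox-treated MIA PaCa-2 replicate 3 (1.494-fold).

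Of 15 other intermediate filament genes, 8 were tested in Pa-Tu-8902, where 16.3% of all genes tested were called. Of the 8, 2 were higher (SYNM, 1.19 ± 0.13, and BFSP1, 0.84 ± 0.12) and 2 lower (median -0.35, against 0.0014 over all genes). In MIA PaCa-2, where 12% of all genes tested were called, 7 were tested and 1 was lower (median -0.044, against -0.0089). GFAP, at low counts, was the other lower gene of Pa-Tu-8902 (-1.79 ± 0.40, adjusted p = 0.00364), a call lost without untreated replicate 2 (adjusted p = 0.0193), dox replicate 1 (0.0145) or dox replicate 3 (0.0188), and with effective lengths (0.172). It passed the filter mainly through the untreated libraries, where it had 12 to 30 counts, against 5 to 11 with dox. NES, the nestin gene, fell in both lines, by 1.00 ± 0.098 (adjusted p = 1.38e-05) and by 1.52 ± 0.090 (adjusted p = 3.56e-07) on the log2 scale. VIM was not called in Pa-Tu-8902 (-1.16 ± 0.32, adjusted p = 0.0117) or in MIA PaCa-2 (-0.04 ± 0.061, adjusted p = 0.589).

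Of 12 epithelial transcription factor genes, 11 were tested in Pa-Tu-8902, where 16.3% of all genes tested were called. Of the 11, 3 were higher (EHF, TP63 and GRHL3) and 2 lower, SOX9 (-0.69 ± 0.064) and OVOL2 (-0.87 ± 0.13). TP63 and GRHL3 passed the filter there only through the dox group, where they were high. In MIA PaCa-2, where 12% of all genes tested were called, 8 were tested, of which 1 was higher and 2 lower (median -0.23). EHF, an epithelial ETS factor, had 2523 to 3103 counts in untreated Pa-Tu-8902, against 5855 to 7636 after dox. In MIA PaCa-2 it had 1940 to 2701 counts untreated, against 1180 to 1473 after dox. It rose by 1.07 ± 0.057 (adjusted p = 1.84e-07) in the first and fell by 0.77 ± 0.083 (adjusted p = 2.79e-05) in the second, and the responses differed by -1.85 ± 0.10 (adjusted p = 1.40e-09). ELF3, its relative, was lower with dox in MIA PaCa-2 (-0.73 ± 0.18, adjusted p = 0.00705). That call was lost without untreated replicate 3 (adjusted p = 0.0189), dox replicate 2 (0.0337) or dox replicate 3 (0.0264), under the replicate block (0.0109) and with effective lengths (0.0248). In Pa-Tu-8902 ELF3 rose by 0.57 ± 0.060 (1.49-fold, adjusted p = 2.00e-05), under the fold limit and so not called. The difference of its response between the lines was -1.30 ± 0.16 (adjusted p = 8.85e-06).

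TP63, the basal epithelial factor, had 2136 to 2854 counts in untreated MIA PaCa-2 and 5 to 7 in untreated Pa-Tu-8902. It rose with dox in Pa-Tu-8902 to 23 to 32 counts (log2 1.88 ± 0.37, adjusted p = 0.00170), but it passed the filter in that line only through the dox group, where it was high. In MIA PaCa-2 it had 2592 to 3513 counts with dox and was not called. KLF4 rose with dox in MIA PaCa-2 (0.82 ± 0.061, adjusted p = 1.77e-06). In Pa-Tu-8902, GRHL3 rose from 6 to 10 counts to 31 to 61 (log2 2.47 ± 0.39, adjusted p = 3.83e-04), and with effective lengths as offsets this call was lost (adjusted p = 0.0275). It too passed the filter only through the dox group.

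**Figure D5:**
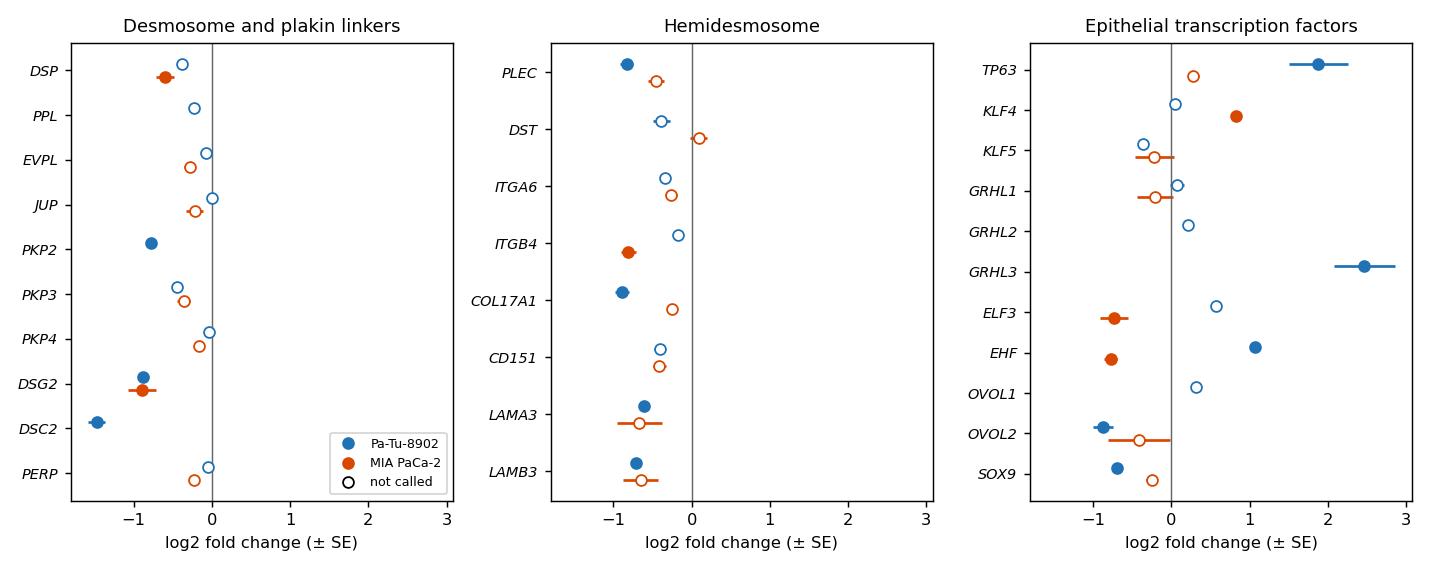
Log2 fold change with dox (horizontal axis, bars of 1 SE) of the tested genes of the desmosome, hemidesmosome and epithelial transcription factor lists in both lines, with filled points for called genes. EHF lies at 1.07 in Pa-Tu-8902 but at -0.77 in MIA PaCa-2, and most desmosome and hemidesmosome genes lie below 0 in both.

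The transcripts behind each gene were read from the isoform table, in which RSEM divides shared reads by estimate. KRT19 was nearly all KRT19-201, with 96.9% to 98.8% of the gene's TPM in every library. KRT8-201 held 80.2% to 88.6% of KRT8 and KRT18-201 held 71.8% to 89.0% of KRT18. For KRT80 a retained-intron transcript, KRT80-203, held 16.0% to 20.9% of the gene's TPM in untreated MIA PaCa-2, against 6.46% to 8.97% after dox, ranges that did not overlap. In Pa-Tu-8902 it held 2.65% to 4.6%. The coding transcript KRT80-202 had 19.2 to 24.4 TPM in untreated and 13.8 to 17.2 TPM in dox-treated MIA PaCa-2, which did not overlap.

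KRT15 was divided over 9 annotated transcripts. Its protein-coding transcripts had 759, 584 and 708 counts in untreated MIA PaCa-2 and 41, 49 and 77 with dox. Its retained-intron transcripts had 406, 420 and 453 counts and 54, 29 and 57. Both kinds were thus lower in every dox-treated library. By TPM, which allows for length, the retained-intron transcripts were above the protein-coding ones in every library of both lines. They were at 22.1, 21.5 and 27.9 TPM in untreated MIA PaCa-2, against 14.3, 10.8 and 14.7 for the protein-coding ones. With dox these were 4.31, 1.65 and 2.12 TPM, against 0.87, 1.15 and 1.26. The TPM of KRT15 given above is thus mostly that of retained-intron transcripts by RSEM's estimate. In Pa-Tu-8902 the protein-coding transcripts had 168 to 257 counts untreated and 177 to 237 after dox, and the ranges overlapped.

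Processed pseudogenes could take reads from a parent gene. Genes named as pseudogenes of KRT8 held 0.306% to 0.614% of the counts of KRT8 and its pseudogenes, those of KRT18 held 0.031% to 0.183%, and those of KRT19 at most 0.032%. Those of KRT17 reached 18 counts, more than KRT17 itself in some libraries, so the value of KRT17 is uncertain.

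The 5 genes whose log2 CPM were most correlated with KRT15 over the 12 libraries, among 16543 other genes, were BTC (Pearson r = 0.973), RBBP4 (0.963), ABHD6 (0.949), ALDH5A1 (0.948) and TEF (0.948). BTC encodes betacellulin, a ligand of the EGF receptor, and its log2 change with dox was -1.37 in MIA PaCa-2 against -0.07 in the other line. The 12 libraries form 4 groups, so these values mainly reflect the 4 group means and are a description. Among the other members, r with KRT15 ran from -0.22 (KRT18) to 0.73 (KRT80).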

How the data were processed

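RNA-seq of 12 libraries was used, 3 in each of 4 groups, assigned to a line and a treatment by the deposited sample titles. The authors trimmed paired-end reads (Trimmomatic 0.39), aligned them with STAR 2.5.2a as called by RSEM 1.3.1 on GENCODE v29 of GRCh38, and deposited expected counts, TPM and FPKM for genes and isoforms, with no filter and replicates kept apart. TPM (a share of transcripts, scaled by length) was used for levels, and the deposited expected counts, rounded (5.34% of them were not whole), for tests. The deposited FPKM values were not used here. The study's methods state default settings for this step without naming a strand option, and RSEM's default does not use strand.

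Tests used edgeR 4.0.16 (glmQLFit, glmQLFTest) in R 4.3.3 after TMM scaling. A gene was tested when 3 or more libraries of the fit had 10 or more counts, with Benjamini-Hochberg adjustment over all genes tested. A call needed an adjusted p under 0.01 with 1.5-fold or more, as in the study's methods. Each standard error is the size of the log2 change over the root of F. Each line was fitted alone, the untreated groups together, and the difference between the lines as the interaction contrast of all 12 libraries. Ratios of TPM were compared by exact permutation over libraries, two-sided, for which 3 libraries against 3 give no p below 0.1. Positions and overlaps come from GENCODE 44 on the same assembly, matched on Ensembl identifiers. Scripts were tested on simulated data.

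The members and the gene lists were chosen with earlier results of these data known. 1 gene of the hemidesmosome list is not reported here and was left out of the list counts. Named beside the members are GOT1, the cell markers, the genes of each list called with dox in a line, and some that were not called. Genes that share reads with a member and the 5 genes most like KRT15 are also named. Not all genes called between the untreated lines are named. Alternatives were DESeq2 1.42.0, its size factors, other filters and fold limits, effective lengths, added pseudogene counts, a replicate block, 1 fit of all 12 libraries and each library left out. The same alternatives for the linked lists were added after the data were seen. Libraries that share a replicate number did not deviate together (correlations over 16544 genes of -0.061 to 0.099), so the numbers were not treated as pairs. Total counts were 26226537 to 43406137 per library. Within groups, the libraries differed beyond sampling noise, with a chi-square per gene of 2.25 to 27.3.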

Additional observations from a re-analysis of the deposited data

Results flagged for a closer look

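For the change with dox in MIA PaCa-2 minus that in Pa-Tu-8902, 10.4% of all genes tested were called. The test of the difference itself was passed by 4 of the 8 members without KRT15. Of the other keratins tested, 1 of 2 type I and 1 of 6 type II genes passed it. On the log2 scale these differences were 0.66 for KRT18, -1.41 for KRT19, -1.36 for KRT80, -2.56 for KRT81, -4.03 for KRT13 and -2.14 for KRT86. For KRT80 and KRT81 the dox libraries were above every untreated one in Pa-Tu-8902 and below every untreated one in MIA PaCa-2. The values of KRT13 rest on 3 to 21 counts in Pa-Tu-8902. KRT81 and KRT86 are close paralogs, and their values may share reads. Dox and GOT1 loss cannot be told apart in either line, and the 2 lines also differ in epithelial and mesenchymal markers, whose part in these differences was not tested.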

How the results depend on the processing

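In Pa-Tu-8902, 2 members were called in the reported fit, 4 with no fold limit (KRT8 and KRT18 added), 1 at a fold change of at least 2 and 1 to 2 when a library was left out, the 1 being without untreated replicate 2. The counts of called members in the other comparisons, 3 with dox in MIA PaCa-2, 5 between the untreated lines and 4 for the difference between the lines, stayed within 1.5 times under every alternative run. A replicate block left the 4 counts of called members as they were (2, 3, 5 and 4). With a library left out they were 3 in MIA PaCa-2, 4 to 5 between the untreated lines and 3 to 5 for the difference, which gained KRT7 without Pa-Tu-8902 untreated replicate 2 or 3 or dox replicate 2 (DESeq2 and no filter also called KRT7). Over the other keratins and linked lists, 18 genes were called in Pa-Tu-8902, 29 with no fold limit and 8 at a fold of at least 2. The same 3 settings called 2443, 5692 and 1111 of all 14949 genes tested there, so the limits moved the counts of all genes too. In MIA PaCa-2 there were 8, against 14 and 2 under those limits and 5 without dox replicate 3. All genes called there were 1751, 3973 and 673 of 14589, and 1508 of 14351 without dox replicate 3. Between the untreated lines there were 32, against 20 with at least 10 counts in every library, and for the difference 10, against 6 at a fold of at least 2. Over all genes, 9072 of 15608 and 6334 of 12298 were called between the untreated lines. For the difference these counts were 1724 and 837 of 16544. The type II to type I ratio in Pa-Tu-8902, a log2 difference of -0.0024, changed sign in 4 of 6 leave-one-out settings (-0.030 to 0.016). With the replicate number as a block the ratio differences within a line are the same by construction, so the block tests only their p. The exact sign-flip p was at least 0.25, the smallest that 3 pairs allow. Depth limits KRT17, KRT7 in MIA PaCa-2 and KRT13 in Pa-Tu-8902, where no library held over 28 counts.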
